A study of Caenorhabditis elegans with 27 samples.

Results

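The fatty acid desaturase genes fat-1 to fat-7 of the nematode Caenorhabditis elegans were followed through 9 groups of worms kept with or without a humic substance. The members were chosen by name: every probe set annotated to 1 of these 7 genes was taken, whatever its level. Each gene had 1 such probe set, and these are 7 of 22548 probe sets without array controls and 7 of 17118 genes that a probe set names alone. All 7 lay over log2 5 on all 27 arrays, so all 7 passed the filter on low values and are among the 11102 probe sets tested.

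The data were Affymetrix expression arrays of RNA from whole worms of strain GE24, and every group, controls included, carried pha-1(e2123), a temperature-sensitive allele with which embryos fail to develop at the warmer culture temperature. Worms had 0.2 or 2.0 mM dissolved organic carbon of HuminFeed (HF), a humic substance preparation, and were harvested after 3 or after 11 days, each age against its own untreated control. Others had 0.2 or 2.0 mM of Huminfeed-Hydroquinone (HF-HQ) for 3 days, against a control of its own. Each of the 9 groups held 3 arrays. The parents had already been on the treated plates, so exposure began before the harvested worms hatched. The series calls the worms adults of 3 or 11 days, whereas the age label of all 27 arrays reads L4 larvae. Because each preparation was used in an experiment of its own, preparation and experiment cannot be told apart, and the same holds for age and experiment.

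Fatty acid desaturases insert double bonds into fatty acids, and the worm makes its unsaturated fatty acids from saturated ones with them. FAT-5 acts mainly on palmitic acid, and FAT-6 and FAT-7 act mainly on stearic acid and give oleic acid, the start of all further products. FAT-2 makes linoleic acid from oleic acid, FAT-1 turns omega-6 into omega-3 fatty acids, FAT-3 adds the double bond that opens the series of longer polyunsaturated fatty acids, and FAT-4 completes arachidonic and eicosapentaenoic acid. The intestine, the worm's main site of fat storage, is a principal place of this synthesis.

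The deposited log2 values of the 3 experiments did not share a scale. The 75th percentile of the probe sets of an array was 7.45 to 7.53 in the 3-day HF experiment, 7.35 to 7.42 in the 11-day HF experiment and 9.28 to 9.39 in the HF-HQ experiment. Probe sets over log2 5 numbered 9149 to 9279, 8818 to 9000 and 10405 to 10491 per array in the same order. The lowest correlation between arrays of a group was 0.987, among those with 0.2 mM HF-HQ, and the lowest in each HF experiment was 0.996. The difference between the 5′ and 3′ control probe sets of ubiquitin, a measure of RNA quality, was -2.44 ± 0.17 in log2 with 0.2 mM HF-HQ and -2.15 ± 0.09 with 2.0 mM HF-HQ, against -2.08 ± 0.05 in their controls (SD, n = 3 each). It was -3.10 ± 0.04 with 0.2 mM HF, -3.04 ± 0.05 with 2.0 mM HF and -2.95 ± 0.03 in the controls at 3 days. A difference was called where its p, from limma and adjusted by Benjamini-Hochberg over all 11102 tested probe sets, was under 0.05, and "rose" and "fell" are used of called differences. A change is given in log2 with its standard error (SE). Every p-value measures the spread between arrays whose origin in separate populations the labels do not state. In RNA of whole worms, fewer cells of a type and less RNA per cell cannot be told apart. The identifier of the fat-6 probe set carries the suffix by which Affymetrix marks sets that can bind transcripts of more than 1 gene. FAT-6 and FAT-7 are close relatives, so its signal may include that of fat-7, although the annotation names fat-6 alone.

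**Figure D1:**
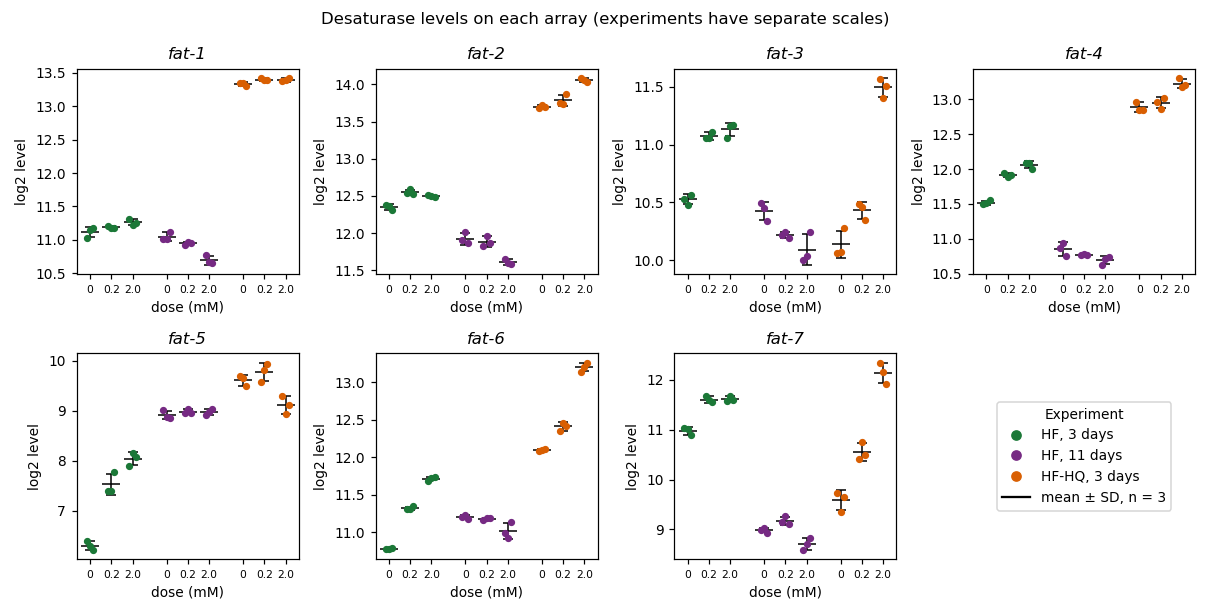
Log2 level of each desaturase gene on each array against the dose in mM dissolved organic carbon, by experiment, with points for the 3 arrays of a group and bars for the mean ± SD. For fat-5 the 3 groups of HF at 3 days stood apart from each other, between 6.22 and 8.15, and for fat-7 the arrays with HF-HQ ran between 9.35 and 12.33.

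In young worms nearly the whole family was higher with HF. At 0.2 mM, 6 of the 7 genes rose and 1 was not called, beside 58.9% of all tested probe sets called in this comparison and 26.0% called higher. At 2.0 mM all 7 rose, beside 60.9% called and 28.0% called higher. The median change of the 7 genes was 0.55 in log2 at 0.2 mM and 0.61 at 2.0 mM, against -0.03 and -0.02 over all tested probe sets.

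The gene of the palmitic acid desaturase, fat-5, changed most. Its log2 level was 6.39, 6.30 and 6.22 on the 3 control arrays, 7.40, 7.40 and 7.78 at 0.2 mM, and 7.89, 8.15 and 8.08 at 2.0 mM HF. No array of a dose overlapped with those of the next. The rise was 1.22 ± 0.11 in log2 (SE, n = 3 per group, 2.33-fold, limma adjusted p = 4.0e-09) at 0.2 mM and 1.74 ± 0.11 (3.34-fold, adjusted p = 1.1e-11) at 2.0 mM. The change at 2.0 mM ranked at place 29 from the top of 11102 probe sets.

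The oleic acid producers rose too. The probe set of fat-6 stood at 10.77, 10.77 and 10.79 in controls, at 11.31, 11.31 and 11.35 at 0.2 mM and at 11.69, 11.72 and 11.74 at 2.0 mM, again with no overlap between doses. It rose by 0.55 ± 0.05 (adjusted p = 7.8e-09) and 0.94 ± 0.05 (1.92-fold, adjusted p = 1.2e-12). For fat-7 the values were 11.03, 11.02 and 10.88 in controls, 11.67, 11.60 and 11.55 at 0.2 mM and 11.57, 11.67 and 11.60 at 2.0 mM. All treated arrays of fat-7 lay above all controls, whereas the arrays of the 2 doses overlapped. The rises of fat-7 were 0.63 ± 0.10 (adjusted p = 2.1e-05) and 0.64 ± 0.10 (adjusted p = 1.4e-05).

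Among the genes of polyunsaturated fatty acid synthesis, fat-3 and fat-4, which are neighbours on the chromosome, rose most. The level of fat-3 was 10.53, 10.48 and 10.57 in controls, 11.06, 11.06 and 11.11 at 0.2 mM and 11.06, 11.16 and 11.17 at 2.0 mM. Its rises were 0.55 ± 0.07 (1.46-fold, adjusted p = 6.8e-07) and 0.61 ± 0.07 (adjusted p = 1.3e-07). For fat-4, controls had 11.50, 11.51 and 11.55, the 0.2 mM arrays 11.94, 11.89 and 11.92 and the 2.0 mM arrays 12.09, 12.09 and 12.01. It rose by 0.40 ± 0.06 (adjusted p = 3.8e-06) and 0.54 ± 0.06 (adjusted p = 3.8e-08), and treated and control arrays of neither gene overlapped.

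The other pair of neighbours on the chromosome, fat-1 and fat-2, moved least. The linoleic acid gene fat-2 had 12.37, 12.37 and 12.31 in controls, 12.53, 12.59 and 12.52 at 0.2 mM and 12.52, 12.49 and 12.48 at 2.0 mM, with rises of 0.20 ± 0.05 (adjusted p = 0.0021) and 0.15 ± 0.05 (adjusted p = 0.016). The omega-3 desaturase gene fat-1 had 11.03, 11.14 and 11.18 in controls and 11.20, 11.18 and 11.18 at 0.2 mM, a difference of 0.07 with a 95% interval of -0.03 to 0.17 that was not called. At 2.0 mM its arrays stood at 11.32, 11.23 and 11.26, and the rise was 0.15 ± 0.05 (adjusted p = 0.012). The call of fat-1 at 2.0 mM was lost without control replicate 1 (adjusted p = 0.091), without treated replicate 1 (0.059), in a fit of only these 6 arrays (0.064) and after quantile normalization (0.10), with adjusted p between 0.0038 and 0.10 over 13 alternatives. That of fat-2 at 2.0 mM was lost without control replicate 3 (0.065).

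Between the doses of HF only fat-5 and fat-6 were called. The step from 0.2 to 2.0 mM added 0.52 ± 0.11 for fat-5 (adjusted p = 9.2e-04) and 0.39 ± 0.05 for fat-6 (adjusted p = 2.1e-06), which were 2 of 7 genes called, beside 21.0% of all tested probe sets called and 13.4% called higher. The other 5 differences lay between -0.05 for fat-2 and 0.15 for fat-4 and were not called, with an adjusted p of 0.07 for fat-4, which 3 alternatives called higher.

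Other signals moved with these changes. Of 8 intestinal markers, 7 had a tested probe set and 6 of these rose at each dose, beside 26.0% and 28.0% of all tested probe sets called higher. Among them elt-2, an intestinal transcription factor, rose by 0.66 ± 0.13 and 0.61 ± 0.13. The log2 of the summed intestinal marker level was 14.37 to 14.45 in controls, 14.74 to 14.82 at 0.2 mM and 14.80 to 14.87 at 2.0 mM. Marker levels were summed before the log2 was taken, so the brightest marker weighs most in such a sum. Among intestinal markers asp-1 averaged 13.94 in these controls and act-5, the next, 11.80. All 8 germ line and oocyte markers fell at both doses, beside 58.9% and 60.9% of all tested probe sets called in either direction. Their summed level was 13.69 to 13.78 in controls, 13.23 to 13.29 at 0.2 mM and 13.30 to 13.37 at 2.0 mM. Body wall muscle markers were higher, at 11.18 to 11.22, 12.03 to 12.10 and 12.38 to 12.45 in the same order. Sperm markers were higher at 0.2 mM (12.07 to 12.20) and lower at 2.0 mM (10.03 to 10.27) than in controls (11.40 to 11.55). The part of such shifts in the desaturase changes was not tested.

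In worms of 11 days 5 of the 7 genes were lower with 2.0 mM HF, and none was called with 0.2 mM. At 0.2 mM the differences from controls lay between -0.21 for fat-3 and 0.19 for fat-7 (limma, lowest adjusted p 0.11). None of the 7 was called, beside 4.0% of all tested probe sets called. By an unadjusted limma p under 0.05 it was 1 of 7, for which the share of all tested probe sets is not given here. At 2.0 mM, 28.3% of all tested probe sets were called and 14.8% were called lower. The median of the 7 genes there was -0.27, against -0.01 over all tested probe sets.

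Of the genes of polyunsaturated fatty acid synthesis, fat-1, fat-2 and fat-3 fell by like amounts. For fat-1 the levels were 11.02, 11.01 and 11.12 in controls, 10.93, 10.97 and 10.95 at 0.2 mM and 10.78, 10.66 and 10.65 at 2.0 mM, so that the high dose lay below both other groups. It fell by 0.35 ± 0.05 in log2 (adjusted p = 1.6e-05). For fat-2 the values were 11.90, 12.02 and 11.86, then 11.83, 11.96 and 11.87, then 11.65, 11.60 and 11.58 in the same order, and the gene fell by 0.32 ± 0.05 (adjusted p = 8.6e-05). The level of fat-3 was 10.50, 10.45 and 10.34 in controls, 10.22, 10.24 and 10.19 at 0.2 mM and 10.00, 10.03 and 10.24 at 2.0 mM, and it fell by 0.34 ± 0.07 (adjusted p = 9.8e-04). For fat-4 the control arrays at 10.87, 10.94 and 10.75 nearly touched the 2.0 mM arrays at 10.63, 10.71 and 10.74, and those at 0.2 mM lay at 10.76, 10.78 and 10.76. It fell by 0.16 ± 0.06 at 2.0 mM (adjusted p = 0.038), a call lost in 8 alternatives, with adjusted p between 0.015 and 0.19.

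Of the monounsaturated fatty acid genes, fat-6 alone was called in old worms. Its probe set read 11.20, 11.23 and 11.18 in controls, 11.16, 11.19 and 11.19 at 0.2 mM and 10.99, 10.92 and 11.14 at 2.0 mM, and it fell by 0.18 ± 0.05 (adjusted p = 0.0085). That call was lost without treated replicate 2 (0.061) and in a fit of only the arrays compared (0.10). For fat-7 the values were 8.99, 9.02 and 8.94 in controls, 9.14, 9.27 and 9.11 at 0.2 mM and 8.59, 8.71 and 8.83 at 2.0 mM. The difference of -0.27 ± 0.10 at 2.0 mM was not called (adjusted p = 0.051), and 5 alternatives called it. The gene with the largest change in young worms, fat-5, stood between 8.85 and 9.04 on all 9 arrays of this age, and its difference at 2.0 mM was 0.06 with a 95% interval of -0.16 to 0.28. Leaving out treated replicate 2 took the count at 2.0 mM to 3 of 7, and leaving out other single arrays gave up to 6.

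Between the 2 doses at 11 days 4 of 7 genes were lower at 2.0 than at 0.2 mM, beside 30.5% of all tested probe sets called and 18.3% called lower. These were fat-7 (-0.46 ± 0.10, adjusted p = 0.0017), fat-2 (-0.27 ± 0.05, adjusted p = 3.1e-04), fat-1 (-0.25 ± 0.05, adjusted p = 5.0e-04) and fat-6 (-0.16 ± 0.05, adjusted p = 0.018). The call of fat-6 was lost in 7 alternatives (adjusted p between 0.0021 and 0.12). At this age the summed intestinal marker level was 13.30 to 13.32 in controls, 13.41 to 13.43 at 0.2 mM and 13.29 to 13.35 at 2.0 mM, and that of the germ line was 13.61 to 13.67, 13.67 to 13.68 and 13.99 to 14.07. All 8 germ line markers rose at 2.0 mM, beside 28.3% of all tested probe sets called in this comparison with controls. Of the 7 intestinal markers with a probe set, elt-2 and the peptide transporter gene pept-1 were not over log2 5 on all arrays of this age, with means of 4.29 and 4.94 in controls. The intestinal sum was mostly that of asp-1, which averaged 13.12 in controls, against 9.23 for act-5. At 2.0 mM act-5 fell (-0.23) and vha-6 rose (0.30), and the other intestinal markers were not called. Between the doses elt-2 (-0.80), ges-1 (-0.41) and act-5 (-0.37) were lower at 2.0 mM, and none was higher. Body wall muscle markers stood at 9.24 to 9.50 in controls, 9.66 to 9.72 at 0.2 mM and 9.69 to 9.88 at 2.0 mM. At 2.0 mM the myosin gene unc-54 rose by 1.11 ± 0.08, tnt-2 by 0.38 and unc-15 by 0.26. The other myosin gene of the list, myo-3, was not called (0.03). Sperm markers stood at 5.37 to 5.49 in controls, 5.95 to 6.07 at 0.2 mM and 5.96 to 6.09 at 2.0 mM. Of 5 such markers 0, 1 and 1 lay over log2 5 on all arrays of these groups. Only msp-45 was called among them, with rises of 1.02 at 0.2 mM and 1.11 at 2.0 mM. The ubiquitin 5′ minus 3′ difference was -3.21 ± 0.03 in controls, -3.22 ± 0.04 at 0.2 mM and -3.24 ± 0.06 at 2.0 mM (SD, n = 3 each). The part of these markers in the lower desaturase levels was not tested.

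**Figure D2:**
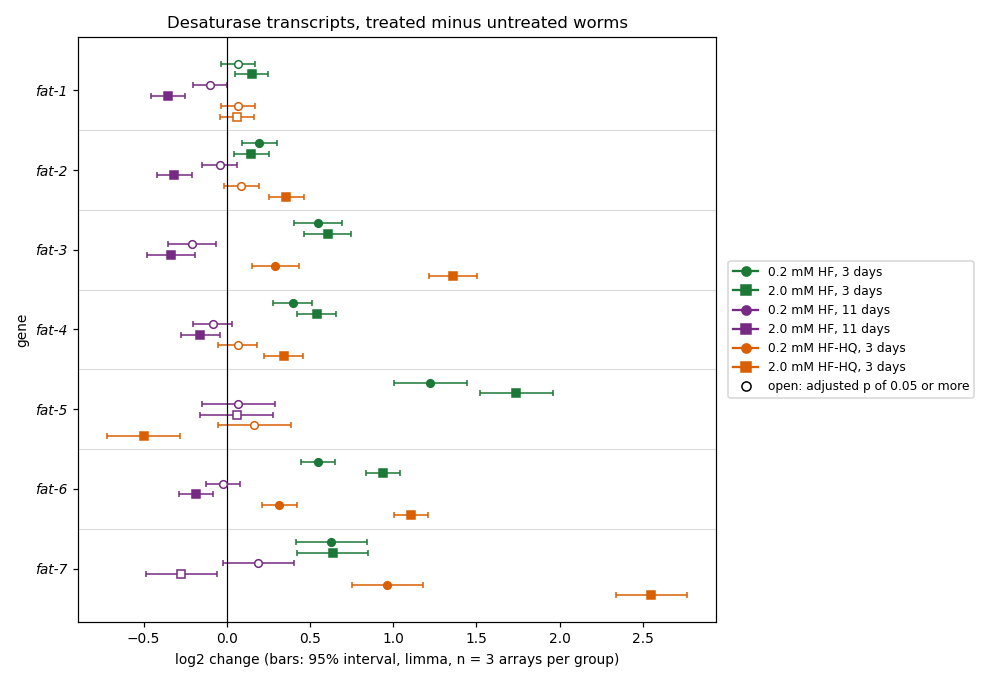
Log2 change of each desaturase gene in treated against untreated worms, with 95% intervals from limma, for 2 doses in each of the 3 experiments. Open symbols have an adjusted p of 0.05 or more; with HF at 3 days fat-5 lies farthest right (1.74 at 2.0 mM), with HF-HQ it is fat-7 (2.55 at 2.0 mM), and at 11 days all called changes lie left of 0.

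HF-HQ gave another order of the genes at the same age. At 2.0 mM, 5 of 7 genes rose and 1 fell, beside 23.5% of all tested probe sets called, 13.2% higher and 10.3% lower. The median of the 7 was 0.36, against -0.02 over all tested probe sets. At 0.2 mM, 3 genes rose and 4 were not called, beside 30.2% called and 15.9% called higher, and the median was 0.17 against 0.05.

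The oleic acid producer gene fat-7 rose most at both doses. The level of fat-7 was 9.73, 9.35 and 9.66 in controls, 10.40, 10.75 and 10.49 at 0.2 mM and 12.33, 12.15 and 11.92 at 2.0 mM, with no overlap between the groups. It rose by 0.97 ± 0.10 (1.95-fold, adjusted p = 1.0e-06) and 2.55 ± 0.10 (5.86-fold, 95% interval 2.34 to 2.76 in log2, adjusted p = 1.0e-14). These changes ranked at places 54 and 33 from the top of 11102 probe sets. The probe set of fat-6 had 12.08, 12.09 and 12.11 in controls, 12.35, 12.46 and 12.42 at 0.2 mM and 13.14, 13.21 and 13.26 at 2.0 mM. Its rises were 0.32 ± 0.05 (adjusted p = 7.0e-05) and 1.11 ± 0.05 (2.15-fold, adjusted p = 6.7e-14). Whether its signal holds some of that of fat-7 was not tested.

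The palmitic acid desaturase gene went the other way. The values of fat-5 were 9.70, 9.66 and 9.49 in controls, 9.58, 9.82 and 9.94 at 0.2 mM and 9.30, 8.94 and 9.12 at 2.0 mM. The 2.0 mM arrays lay below all others. The gene fell by 0.50 ± 0.11 in log2 (95% interval of the change -0.72 to -0.28, adjusted p = 0.0011). At 0.2 mM the difference of 0.17 was not called (adjusted p = 0.24), and the arrays overlapped with the controls.

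Of the polyunsaturated fatty acid genes, fat-3 rose most. Its level was 10.07, 10.07 and 10.27 in controls, 10.48, 10.46 and 10.35 at 0.2 mM and 11.57, 11.41 and 11.51 at 2.0 mM. It rose by 0.29 ± 0.07 (adjusted p = 0.0029) at 0.2 mM, a call lost in a fit of only the arrays compared (0.10), and by 1.36 ± 0.07 (2.56-fold, adjusted p = 5.8e-13) at 2.0 mM. The neighbour of fat-3, fat-4, had 12.96, 12.85 and 12.84 in controls, 12.96, 12.87 and 13.02 at 0.2 mM and 13.31, 13.17 and 13.20 at 2.0 mM, and rose at 2.0 mM by 0.34 ± 0.06 (adjusted p = 6.9e-05). For fat-2 the values were 13.68, 13.72 and 13.70, then 13.75, 13.74 and 13.87, then 14.09, 14.06 and 14.03 in the same order, with a rise of 0.36 ± 0.05 (adjusted p = 9.4e-06) at 2.0 mM. The omega-3 gene fat-1 ran between 13.30 and 13.43 on all 9 arrays, and its difference of 0.06 at 2.0 mM was not called (95% interval -0.04 to 0.16).

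The step from 0.2 to 2.0 mM HF-HQ called 6 of 7 genes, 5 higher and 1 lower, beside 33.2% of all tested probe sets called, 17.5% higher and 15.7% lower. The step was 1.59 ± 0.10 for fat-7 (adjusted p = 5.8e-11), 1.06 ± 0.07 for fat-3 (5.6e-11), 0.79 ± 0.05 for fat-6 (3.3e-11) and -0.66 ± 0.11 for fat-5 (3.8e-05). The steps of fat-2 and fat-4 were both 0.27, with adjusted p of 2.3e-04 and 5.9e-04, and that of fat-4 was lost in a fit of only the arrays compared (0.053). At 2.0 mM 6 of 7 tested intestinal markers rose and 1 fell against controls, beside 13.2% of all tested probe sets called higher and 10.3% lower. The summed intestinal marker level was 15.21 to 15.32 in controls, 15.32 to 15.44 at 0.2 mM and 15.72 to 15.75 at 2.0 mM. The summed germ line level was 15.91 to 15.97, 15.63 to 15.84 and 15.85 to 15.86, and that of body wall muscle 14.76 to 14.78, 14.76 to 14.77 and 14.71 to 14.76. Sperm markers stood at 6.12 to 6.38 in controls, 6.86 to 7.31 at 0.2 mM and 5.99 to 6.40 at 2.0 mM. In each of these groups 1 of 5 sperm markers lay over log2 5 on all arrays. Only msp-45 was called among them, with a rise of 0.94 at 0.2 mM. In the controls elt-2 averaged 4.30, and none of their arrays was over log2 5 for it. The part of these shifts, and of the ubiquitin difference at 0.2 mM, was not tested. The counts at 0.2 and at 2.0 mM stayed at 3 and 6 without any single array, those with 0.2 mM HF-HQ included.

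**Figure D3:**
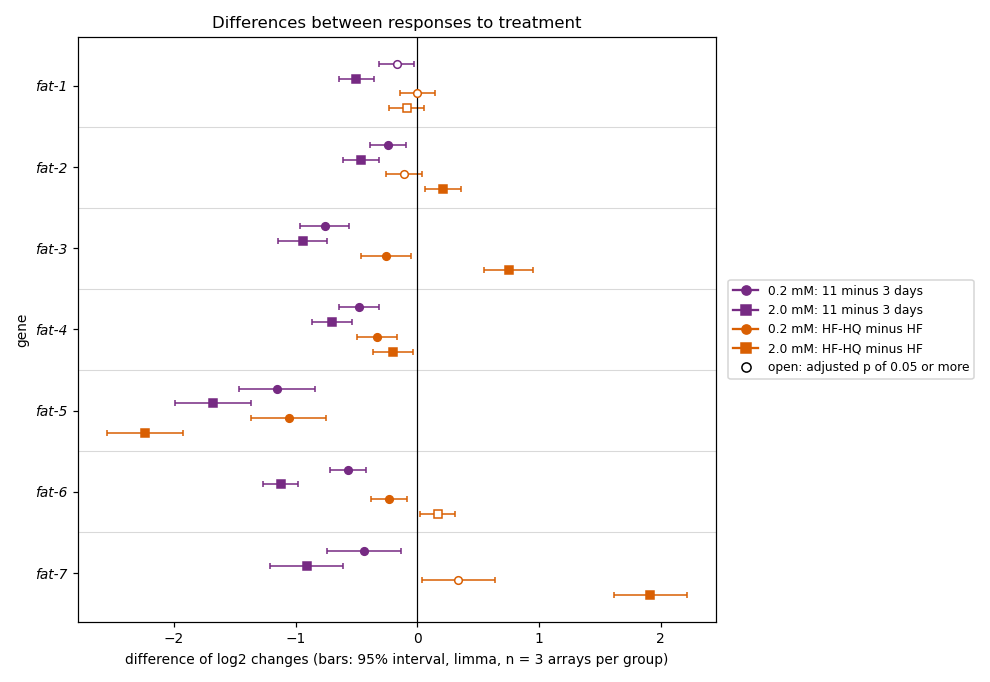
Differences between log2 changes, with 95% intervals from limma: the response to HF at 11 days minus that at 3 days, and the response to HF-HQ minus that to HF at 3 days, for each dose. At 2.0 mM fat-5 lies farthest left in both comparisons (-1.68 and -2.24), and fat-7 lies at -0.91 for age and at 1.91 for preparation.

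The responses to HF at 11 and at 3 days were set against each other in 1 model, as the difference of the 2 changes. At 2.0 mM all 7 differences were called lower at 11 days, beside 62.0% of all tested probe sets called and 29.3% called lower. The differences were -1.68 ± 0.15 for fat-5 (adjusted p = 7.8e-09), -1.12 ± 0.07 for fat-6 (5.1e-11), -0.94 ± 0.10 for fat-3 (5.9e-08) and -0.91 ± 0.15 for fat-7 (1.5e-05). Those of fat-4, fat-1 and fat-2 were -0.70, -0.50 and -0.46. At 0.2 mM 6 of 7 were called lower, beside 42.7% called and 16.6% called lower, from -1.15 for fat-5 to -0.24 for fat-2, and fat-1 was not called (-0.17, adjusted p = 0.053), although 5 alternatives called it lower. That of fat-7 at 0.2 mM (-0.44, adjusted p = 0.019) was lost after quantile normalization (0.078) and without the 3-day control replicate 3 (0.051).

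The responses to 2.0 mM of HF-HQ and of HF at 3 days differed most for fat-5 and fat-7, in opposite directions. The response of fat-5 was lower with HF-HQ by a difference of -2.24 ± 0.15 (95% interval -2.55 to -1.93, adjusted p = 1.0e-10), at place 25 from the bottom of 11102 probe sets. The response of fat-7 was higher with HF-HQ, by 1.91 ± 0.15 (95% interval 1.61 to 2.22, adjusted p = 7.2e-10), at place 84 from the top. In all, 3 genes were called higher and 2 lower with HF-HQ, beside 48.2% of all tested probe sets called, 27.6% higher and 20.6% lower. The others called were fat-3 (0.75 ± 0.10, adjusted p = 1.8e-06), fat-2 (0.21 ± 0.07, 0.019) and fat-4 (-0.20 ± 0.08, 0.042). The call of fat-2 was lost after quantile normalization (0.054) and that of fat-4 in 10 alternatives (adjusted p between 0.021 and 0.12). For fat-6 and fat-1 the differences were 0.17 (95% interval 0.02 to 0.31, adjusted p = 0.054) and -0.09 (-0.23 to 0.06), which were not called. That of fat-6 was called higher in 6 of 19 alternatives, with 0.23 (adjusted p = 0.015) after quantile normalization, where the count was 3 higher and 1 lower.

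At 0.2 mM 4 genes had a lower response to HF-HQ than to HF and none a higher, beside 40.2% called and 15.8% called lower. The difference was -1.06 ± 0.15 for fat-5 (adjusted p = 1.0e-05), -0.33 ± 0.08 for fat-4 (0.0024), -0.26 ± 0.10 for fat-3 (0.040) and -0.23 ± 0.07 for fat-6 (0.012). The call of fat-3 was lost in 12 of 19 alternatives (adjusted p between 0.029 and 0.29). That of fat-6 was lost when arrays were centred on their medians (0.088) and after quantile normalization (0.062). For fat-1, fat-2 and fat-7 the differences were 0.00 (-0.14 to 0.14), -0.11 (-0.26 to 0.04) and 0.34 (0.04 to 0.64), none of them called. That of fat-7 (adjusted p = 0.068) was called higher in 4 of 19 alternatives, with 0.40 (adjusted p = 0.024) when arrays were centred and 0.50 (0.012) after quantile normalization, and under each of these 2 scalings the count was 1 higher and 2 lower. The controls of the 2 experiments did not start at like levels: fat-5 averaged 9.62 ± 0.11 in the HF-HQ controls and 6.30 ± 0.08 in the HF controls of 3 days, and after quantile normalization of all arrays 8.35 and 6.88.

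Age itself was read from untreated worms, 11 days against 3 days, and fat-5 and fat-7 again lay at opposite ends. The level of fat-5 was 9.01, 8.88 and 8.85 at 11 days, against 6.39, 6.30 and 6.22 at 3 days, a rise of 2.61 ± 0.11 (6.11-fold, adjusted p = 3.9e-16). That of fat-7 was 8.99, 9.02 and 8.94 at 11 days, against 11.03, 11.02 and 10.88 at 3 days, a difference of -1.99 ± 0.10 (3.98-fold lower, adjusted p = 3.6e-14). On the deposited scale 2 genes were higher and 3 lower at 11 days, beside 79.1% of all tested probe sets called, 27.9% higher and 51.2% lower, and all tested probe sets shifted by -0.24 in the median. After quantile normalization that shift was 0.04, and 5 genes were higher and 2 lower.

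The probe set of fat-6 was higher at 11 days (0.42 ± 0.05, adjusted p = 6.5e-08), and so it was after quantile normalization (0.97). The level of fat-4 was lower, by a log2 difference of -0.67 ± 0.06 (adjusted p = 2.8e-10), which after quantile normalization was -0.13 (adjusted p = 0.042). For fat-2 the direction depended on the scaling, with -0.42 (adjusted p = 8.3e-08) as deposited and 0.24 (adjusted p = 3.1e-04) after quantile normalization. For fat-1 and fat-3 the deposited differences of -0.07 and -0.10 were not called, and after quantile normalization they were 0.48 (adjusted p = 4.6e-09) and 0.41 (2.9e-05). The summed intestinal marker level was 13.30 to 13.32 at 11 days, against 14.37 to 14.45 at 3 days. Of 7 tested intestinal markers 6 were lower, beside 51.2% of all tested probe sets called lower. Summed levels were also lower at 11 days for sperm markers (5.37 to 5.49, against 11.40 to 11.55 at 3 days), for hypodermis (11.77 to 12.18, against 14.54 to 14.68) and for body wall muscle (9.24 to 9.50, against 11.18 to 11.22). Germ line markers stood at 13.61 to 13.67 at 11 days, against 13.69 to 13.78 at 3 days, and neuronal markers at 11.07 to 11.18, against 10.46 to 10.50. The ubiquitin 5′ minus 3′ difference was -3.21 ± 0.03 at 11 days, against -2.95 ± 0.03 at 3 days (SD, n = 3 each). The part of these shifts in the age differences was not tested.

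To order the groups by level across experiments, the arrays were quantile normalized together. On that scale fat-5 was highest at 11 days, with 9.64 in controls, 9.72 at 0.2 mM and 9.72 at 2.0 mM, and lowest in HF controls at 3 days with 6.88. The 6 groups of 3 days followed the order 8.64 with 2.0 mM HF, 8.54 with 0.2 mM HF-HQ, 8.35 in the HF-HQ controls, 8.14 with 0.2 mM HF and 7.82 with 2.0 mM HF-HQ before that lowest group. Of the 8 pairs of neighbours in this order 5 overlapped in their arrays. Overlap is no test of a difference, so the order of such neighbours stays unsettled.

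The order for fat-7 was another one. The top 3 groups were those of HF at 3 days, with 11.85 at 2.0 mM, 11.84 at 0.2 mM and 11.30 in controls, and then came 2.0 mM HF-HQ with 10.96. The 11-day groups stood at 9.43 to 9.92, 0.2 mM HF-HQ at 9.34 and the HF-HQ controls last at 8.30. Only 2 of 8 neighbouring pairs overlapped. For fat-6 the top was 12.07 in 11-day controls and the bottom 10.96 in HF-HQ controls (3 of 8 pairs overlapped), and for fat-3 the range was 11.38 with 2.0 mM HF at 3 days to 8.89 in HF-HQ controls (4 of 8). For fat-4 it was 12.33 with 2.0 mM HF at 3 days to 11.58 with 2.0 mM at 11 days (6 of 8), for fat-2 it was 12.98 with 2.0 mM HF-HQ to 12.55 with 2.0 mM HF at 11 days (5 of 8), and fat-1 was lowest in HF controls of 3 days with 11.43 (4 of 8).

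The genes whose levels ran most like each member were found over the 27 arrays, after the mean of its experiment was taken off each value, among 10526 probe sets of 1 gene each. The 7 members were left out of these candidates, so likeness between desaturases was not ranked. These correlations describe arrays that share groups and carry no test. For fat-5 they were B0035.15 (Pearson r = 0.97), dhs-3, a short-chain dehydrogenase of lipid droplets (0.96), and mff-2 (0.95). For fat-6 they were tts-1, a long noncoding RNA (0.98), F09C8.1 (0.97) and spp-18, a saposin-like protein (0.96). For fat-7 they were both probe sets of F45D3.4 (0.96 and 0.95) and ech-9, an enoyl-CoA hydratase-like gene (0.95), and for fat-3 they were the same 2 sets of F45D3.4 (0.96 and 0.95) and F01D5.3 (0.95). For fat-4 they were lact-2 (0.96), the cysteine protease gene cpr-1 (0.95) and the acyltransferase-like gene acl-12 (0.92). For fat-2 they were lro-1 (0.92), Y43C5A.3 (0.91) and C39H7.4 (0.91), and for fat-1 pwp-1 (0.90), F17E9.4 (0.87) and DH11.2 (0.87).

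**Figure D4:**
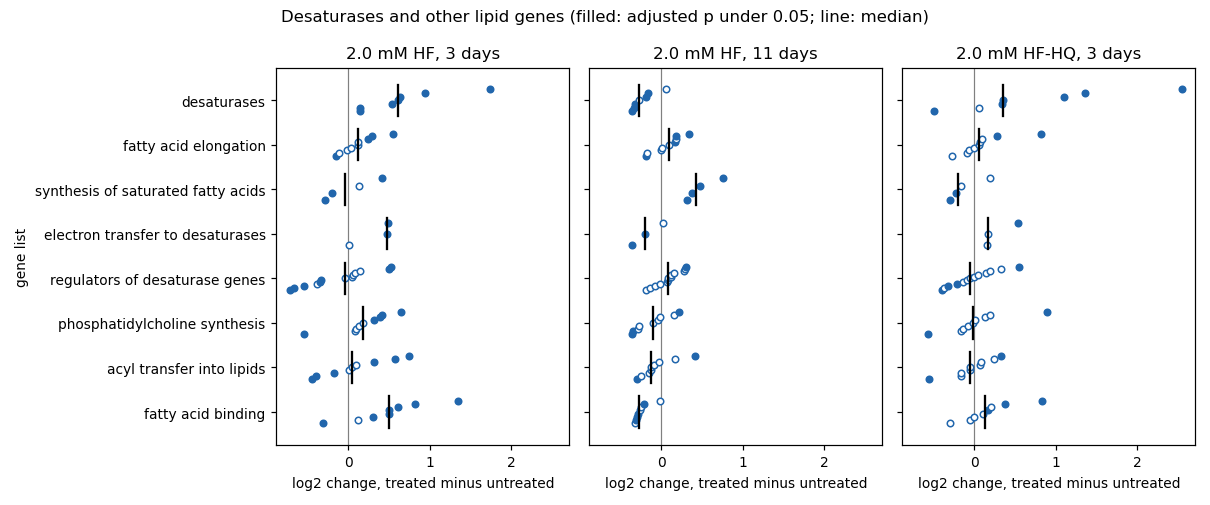
Log2 change of every tested gene of the desaturase family and of 7 other lipid gene lists at 2.0 mM, treated minus untreated worms, with the median of each list as a line. The desaturase median lies at 0.61 for 3 days of HF, at -0.27 for 11 days of HF and at 0.36 for HF-HQ, and the median of saturated fatty acid synthesis lies at -0.04, 0.43 and -0.20.

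The surrounding pathway was read from 7 lists of 62 lipid genes, of which 55 were tested, each by its brightest probe set. With HF at 3 days 36 of the 55 were called at 0.2 mM and 34 at 2.0 mM. The shares of all tested probe sets called there were 58.9% and 60.9%. It was 20 with 2.0 mM HF at 11 days, beside 28.3%. With HF-HQ it was 18 at 0.2 mM and 16 at 2.0 mM, beside 30.2% and 23.5%. Between untreated worms of 11 and 3 days 43 were called, beside 79.1% called and 51.2% called lower. For 14 genes with several tested probe sets, no comparison with controls and no age comparison held opposite calls for 1 gene. At 0.2 mM HF and 11 days none of the 55 was called, beside 4.0% of all tested probe sets. By an unadjusted limma p under 0.05 it was 7, for which the share of all tested probe sets is not given here. Enzymes that make the saturated precursors were called in both directions. Of 4 such genes 2 rose and 2 fell at 0.2 mM HF in young worms, with acly-1, an ATP citrate lyase, at 0.54. At 2.0 mM 1 rose and 2 fell, with pod-2, the acetyl-CoA carboxylase, at 0.42. At 11 days all 4 rose at 2.0 mM, pod-2 by 0.76 ± 0.13 in log2, where 5 of the 7 desaturases fell. With HF-HQ 1 fell at 0.2 mM (pod-2, -0.36) and 2 at 2.0 mM, with the fatty acid synthase gene fasn-1 at -0.30.

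Electron transfer to the desaturases runs through cytochrome b5 and its reductase. Of these 3 genes 2 rose at each dose of HF in young worms, cytb-5.1 by 0.55 ± 0.07 at 0.2 mM and cytb-5.2 by 0.49 at 2.0 mM. At 11 days 2 fell at 2.0 mM, cytb-5.2 by a change of -0.36. All 3 rose with 0.2 mM HF-HQ (cytb-5.1 by 0.25) and 1 with 2.0 mM (cytb-5.1 by 0.54). Between untreated worms of 11 and 3 days all 3 were lower at 11 days, with hpo-19 at -1.09. Beside these counts, 26.0% and 28.0% of all tested probe sets were called higher with 0.2 and 2.0 mM HF at 3 days. With 0.2 and 2.0 mM HF-HQ 15.9% and 13.2% were called higher. With 2.0 mM HF at 11 days 14.8% were called lower, and between untreated ages 51.2% were called lower.

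Elongases lengthen the chains between desaturation steps. Of 9 tested elongation genes 6 rose at 0.2 mM HF in young worms, with elo-2, which elongates palmitic acid, at 0.45 ± 0.08, and at 2.0 mM 3 rose and 1 fell, with elo-4 at 0.55 ± 0.11. In worms of 11 days with 2.0 mM 3 rose and 1 fell, with elo-2 at 0.34. With HF-HQ 4 rose at 0.2 mM (elo-4 by 0.34) and 2 at 2.0 mM (elo-2 by 0.82 ± 0.08). Untreated worms of 11 days had 7 of the 9 lower and 1 higher than at 3 days, with elo-2 at -3.17 ± 0.08. Of all tested probe sets, 26.0% and 28.0% were called higher with 0.2 and 2.0 mM HF at 3 days. With 0.2 and 2.0 mM HF-HQ 15.9% and 13.2% were called higher. With 2.0 mM HF at 11 days 28.3% were called in either direction. Between untreated worms 51.2% were called lower at 11 days and 27.9% higher.

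Lipid-binding proteins carry fatty acids inside and outside cells. Of 8 tested lbp genes 6 rose and 1 fell at each dose of HF in young worms, and lbp-7 rose by 0.63 ± 0.11 and 1.35 ± 0.11. At 11 days 4 fell at 2.0 mM, with lbp-4 at -0.31 ± 0.08. With HF-HQ 4 rose at 0.2 mM and 3 at 2.0 mM, with lbp-7 at 0.65 and 0.83. Among all tested probe sets, 26.0% and 28.0% were called higher with 0.2 and 2.0 mM HF at 3 days. With 2.0 mM HF at 11 days 14.8% were called lower, and with HF-HQ 15.9% and 13.2% were called higher.

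Known regulators of desaturase genes were called in both directions. Of 13 tested, 2 rose and 5 fell at each dose of HF in young worms. Of all tested probe sets 58.9% and 60.9% were called there, and 26.0% and 28.0% were called higher. The sterol regulatory element binding protein gene sbp-1, an activator of the desaturases, rose by 0.59 ± 0.13 (adjusted p = 5.6e-04) at 0.2 mM and 0.50 (adjusted p = 0.0020) at 2.0 mM. The nuclear receptor gene nhr-80 rose by 0.29 (adjusted p = 0.047) and 0.52 ± 0.12 (7.9e-04). The receptor genes nhr-49 and nhr-66 fell, nhr-49 by changes of -0.32 and -0.33 and nhr-66 by changes of -0.41 and -0.55. The gene of the membrane fluidity sensor PAQR-2 fell too, with paqr-2 at -0.61 ± 0.12 and -0.72. The Mediator subunit gene mdt-15 was not called (-0.15 and -0.04), and neither was nhr-13.

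With 0.2 mM HF-HQ 3 regulators fell and none rose: paqr-2 (-0.99), mdt-15 (-0.93 ± 0.14, adjusted p = 6.4e-05) and acdh-11, an acyl-CoA dehydrogenase gene that limits fat-7 expression (-0.36, adjusted p = 0.0087). At 2.0 mM 1 rose, nhr-64 by 0.55 ± 0.13, and 3 fell, among them sbp-1 (-0.39, adjusted p = 0.032). The difference between the responses of sbp-1 to HF-HQ and HF was -0.58 (adjusted p = 0.016) at 0.2 mM and -0.90 ± 0.18 (adjusted p = 3.8e-04) at 2.0 mM. At 11 days and 2.0 mM HF only daf-16, the FOXO transcription factor gene, was called, with a rise of 0.31 ± 0.08. Of all tested probe sets 30.2% were called with 0.2 mM HF-HQ, 23.5% with 2.0 mM HF-HQ and 28.3% with 2.0 mM HF at 11 days.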

How the data were processed

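Affymetrix arrays of whole worms gave the values, 27 arrays in 9 groups of 3, and groups were taken from the sample titles. The authors deposited log2 expression per probe set, made with GCRMA per the submitters' processing notes, which name no version; genome build is not given in the sources used here. GCRMA corrects background, normalizes and summarises probes. As the experiments had separate scales, changes within an experiment are safer than levels across experiments. Array precision is limited by the 3 arrays per group, and whether these were separate populations is not stated.

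The table held 22625 probe sets. Without 77 array controls, those over log2 5 in at least 3 arrays (11102) were tested. A single gene symbol belonged to 10533 of them, several to 378 and none to 191. The fit used limma 3.58.1 (R 4.3.3) with a mean for each of the 9 groups (moderated variance, two-sided), and 14 contrasts were adjusted by Benjamini-Hochberg over all tested probe sets; a call is an adjusted p under 0.05. Differences of responses are contrasts of contrasts. The procedure was run on simulated arrays with independent noise and few changed probe sets. These lacked the scale differences between experiments and the many called probe sets of the real data. Figures were drawn with matplotlib 3.10.9 in Python 3.11.15.

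All 7 members were named in every comparison. From the other lists the called gene of largest change was named, and regulators wherever these are described. Gene neighbours came from RefSeq's gene table of assembly WBcel235. Likeness was Pearson's r. The members and lists were chosen with earlier results of these data known. Alternatives were no filter, a filter at log2 7, median centring, quantile normalization, a variance trend, a replicate block, a fit of the compared arrays alone, and leaving out each array. Protein and promoter sequences, and promoter motifs, were not analysed here.

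Same-numbered replicates were checked for pairing: of 27 correlations of deviations from group means 3 were over 0.1 and 16 negative, so the numbers were not used as pairs. The 3 were 0.43 and 0.12 between control and 2.0 mM HF-HQ (replicates 1 and 2) and 0.21 between 0.2 and 2.0 mM HF at 3 days (replicate 1).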

Additional observations from a re-analysis of the deposited data

Results flagged for a closer look

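For 22 results the response to a treatment differed between the ages or between the preparations by a test of the difference itself (limma, Benjamini-Hochberg adjusted p under 0.05), beside 42.7% and 62.0% of all tested probe sets for age at 0.2 and 2.0 mM and 40.2% and 48.2% for preparation. All are differences of log2 changes. The response to 2.0 mM HF was lower at 11 than at 3 days for fat-1 (-0.50 ± 0.07), fat-2 (-0.46 ± 0.07), fat-3 (-0.94 ± 0.10), fat-4 (-0.70 ± 0.08), fat-5 (-1.68 ± 0.15), fat-6 (-1.12 ± 0.07) and fat-7 (-0.91 ± 0.15). The response to 0.2 mM was lower at 11 days for fat-2 (-0.24), fat-3 (-0.76), fat-4 (-0.48), fat-5 (-1.15), fat-6 (-0.57) and fat-7 (-0.44).

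The response to 2.0 mM HF-HQ exceeded that to HF for fat-7 (1.91), fat-3 (0.75) and fat-2 (0.21), and was below it for fat-5 (-2.24) and fat-4 (-0.20). At 0.2 mM it was below it for fat-5 (-1.06), fat-4 (-0.33), fat-3 (-0.26) and fat-6 (-0.23). The response of fat-5 to 2.0 mM thus had opposite signs in the 2 preparations, with -0.50 for HF-HQ and 1.74 for HF, each against its own controls. Between preparations the call of fat-4 at 2.0 mM was lost in 10 of 19 alternatives and that of fat-3 at 0.2 mM in 12. Those of fat-6 at 0.2 mM and of fat-2 at 2.0 mM were lost in 2 and in 1. For age, the call of fat-7 at 0.2 mM was lost in 2. Age and preparation cannot be told apart from the experiment in which each was used.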

How the results depend on the processing

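Alternatives numbered 1442 over 98 combinations of a member with a comparison. Of these alternatives, 1364 kept a call with its direction or stayed without a call, 51 lost a call and 24 gained one. Another 3 turned the direction of a call or called the opposite sign. These 3 were the age differences of untreated worms after quantile normalization, where fat-1 was 0.48, fat-2 0.24 and fat-3 0.41; the cause was not tested. In 16 of the 1364 alternatives the sign changed with no call on either side. Without a single array, the count of called members stayed within 1.5 times its value except for 2.0 mM HF at 11 days, where it ranged over 3 to 6 about a count of 5. Quantile normalization changed 15 single calls, a fit of only the compared arrays 10, which has fewer arrays to estimate the spread, median centring 6 and the variance trend 4. No filter and the filter at log2 7 changed 3 each. Leaving out 1 array at a time changed 34 single calls, counted over all such fits.

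The replicate block changed 3 single calls: fat-4 was lost at 2.0 mM HF at 11 days (adjusted p = 0.053) and in the difference between preparations at 2.0 mM (0.055), and fat-3 in that at 0.2 mM (0.076). It changed no other call of a member. The replicate numbers showed little pairing, with 16 of 27 correlations negative, but r was 0.43 between control and 2.0 mM HF-HQ of replicate 1. Whether a call lost there is a weaker effect thus stays unsettled. A mean over several probe sets of a gene was not run, since each gene had 1. Signals of fat-6 and fat-7 may overlap, and 3 arrays per group limit the precision.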

Other observations

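Of the genes of phosphatidylcholine synthesis, the membrane lipid pathway that acts on SBP-1, 9 of 11 were tested. At 0.2 mM HF in young worms 3 rose and 1 fell, and at 2.0 mM 4 rose and 1 fell, with pcyt-1, which gives the rate-limiting enzyme, at 0.66 ± 0.06 and 0.65 in log2. Of all tested probe sets 58.9% and 60.9% were called in these comparisons. With 2.0 mM HF-HQ 1 rose, the methyltransferase gene pmt-1 by 0.89 ± 0.08, and 1 fell, the S-adenosylmethionine synthetase gene sams-1 (-0.57). At 11 days none was called at 0.2 mM HF, and at 2.0 mM 1 rose and 2 fell. The shares of all tested probe sets called were 23.5% with 2.0 mM HF-HQ and 4.0% and 28.3% at 11 days. All 9 genes were lower in untreated worms of 11 days than of 3 days. There 51.2% of all tested probe sets were called lower, and all tested probe sets shifted by -0.24 in the median.

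Of 9 genes of acyl transfer into lipids, 3 rose and 3 fell at each dose of HF in young worms, with dgat-2, a diacylglycerol acyltransferase gene, at 0.77 ± 0.14 at 0.2 mM. With 2.0 mM HF-HQ 1 rose and 1 fell, and the gene that fell was dgat-2 (-0.56). The shares of all tested probe sets called were 58.9% and 60.9% with HF at 3 days and 23.5% with 2.0 mM HF-HQ. Untreated worms of 11 days had 8 of the 9 lower than at 3 days, beside 51.2% of all tested probe sets called lower.

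The untreated worms of 3 days in the HF-HQ and HF experiments had different levels of some members after quantile normalization of all arrays. The level of fat-7 was 8.30 in the HF-HQ controls and 11.30 in the HF controls, and that of fat-5 was 8.35 and 6.88. As deposited, on separate scales, summed sperm markers stood at 6.12 to 6.38 in the HF-HQ controls. In the HF controls of 3 days they stood at 11.40 to 11.55. The sources used here give no difference in the handling of these controls.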
